A study of Mus musculus with 80 samples.

Results

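The 10 genes described here encode the adaptors that bring nuclear RNA to the exosome for decay: Zcchc8, Rbm7, Zfc3h1, Pabpn1, Zc3h3, Rbm26, Rbm27, Zc3h18, Srrt and Ncbp1. They were taken by gene symbol from the expression tables, in which all 10 of 10 were found among 22556 genes. All 10 also passed the filter on low values in every fit. They were followed through 80 libraries of chromatin-associated RNA (ChrRNA-seq, RNA that stays with chromatin after lysis), above all in the lines in which ZCCHC8 or ZFC3H1 was depleted. The question was whether the gene of a depleted adaptor, or the genes of its partners and of the parallel pathway, changed their own RNA level.

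The nuclear exosome degrades RNA from its 3′ end but chooses its substrates through adaptor complexes that share the helicase MTR4. In the NEXT complex, MTR4 is joined by the scaffold ZCCHC8 and the RNA-binding protein RBM7, and the complex acts on short transcripts without a poly(A) tail, such as promoter upstream transcripts and enhancer RNAs. In the PAXT connection, MTR4 is joined by the zinc-finger protein ZFC3H1, which works with the poly(A)-binding protein PABPN1, with ZC3H3 and with the paralogues RBM26 and RBM27, on polyadenylated nuclear transcripts. ZC3H18 and SRRT (ARS2) link both adaptors to the cap-binding complex, whose large subunit is NCBP1.

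All cells derived from female mouse embryonic stem (ES) cells of a cross of Cast and 129S, grown on inactivated fibroblast feeders, in which doxycycline (Dox) switches on Xist from 1 X chromosome. The ZCCHC8 line (clones Z4F and Z12H) and the ZFC3H1 line (clones 8H and 11A) carried the FKBP12 F36V degron at the C terminus of the target, inserted by CRISPR-Cas9, and each clone is a cell line of its own. The small molecule dTAG-13 leads to loss of the tagged protein. Each clone gave 4 libraries, 1 without treatment, 1 after 26 h of dTAG, 1 after 24 h of Dox and 1 after dTAG for 2 h followed by dTAG with Dox for 24 h. For dTAG alone the sample titles (26 h) were used, since the treatment field (2 h) differs from them. The inducible Xist was on the 129S X with added Bgl stem loops in the ZCCHC8 and YTHDC1 lines, and on the Cast X in the others. For comparison there were YTHDC1 degron clones (Y9F and Y12H, both in each of 2 experiments), METTL3 degron clones (G4 and H1 with an N-terminal tag, C3 and H5 with a C-terminal tag), and transgene lines made in METTL3 clone H5. From Rosa26 these lines expressed GFP-METTL3, either as wild type (WT) or as the D395A catalytic mutant. Each was 1 clone with both X chromosomes (XX) and 1 clone labelled XiO, sequenced in 2 experiments. Every comparison line got the same 4 treatments, so all groups share the degron background and the inducible Xist. Protein levels were not analysed here. Replicates of a degron line are clones, those of a transgene line are experiments with 1 clone, and p-values measure the spread between such libraries.

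Depth was 14.8 to 26.8 M reads (megareads) per library in the ZCCHC8 line, 15.7 to 22.8 M in the ZFC3H1 line and 8.58 to 34.4 M over all 80 libraries. Of 8 ES cell markers, 7 were detected in every library, with a summed level of 788 to 2247 CPM (read counts scaled to library size), and Sox2 was listed at 0 in all 80. The 8 feeder fibroblast markers summed to 15.5 to 59.3 CPM, and Col1a1 did not exceed 5.00 CPM in any library. In the ZFC3H1 line, feeder markers summed to 22.8 to 56.8 CPM without dTAG and 28.0 to 59.3 CPM with dTAG, of which Fbn1 alone was 19.2 to 57.2 CPM. In the ZCCHC8 line they summed to 33.7 to 38.9 CPM without dTAG and 36.3 to 44.7 CPM with it, and their part in the results was not tested. None of 56 replicate pairs held the same values, and each pair differed by at least 7.60 in chi-square per degree of freedom.

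The promoters of Srrt, Pabpn1 and Zc3h18 are shown because these genes were lower in both dTAG comparisons of the ZCCHC8 line, and that of Zfc3h1 because it is the gene of the other depleted adaptor. Each run is the RefSeq sequence on GRCm38.p6 from 250 bases before to 50 bases after the annotated start, 5′ to 3′ along the gene. Capitals mark matches on either strand to 1 of 6 motifs: the motif of ETS factors (CCGGAAG), that of NRF1 (GCGCATGCG), the GC box bound by SP1 (GGGCGG), the box bound by NF-Y (CCAAT), the element bound by TBP (TATAAA, called TATA box) and the motif of YY1 (AAGATGGC).
Srrt, chr5:137307625-137307924, minus strand: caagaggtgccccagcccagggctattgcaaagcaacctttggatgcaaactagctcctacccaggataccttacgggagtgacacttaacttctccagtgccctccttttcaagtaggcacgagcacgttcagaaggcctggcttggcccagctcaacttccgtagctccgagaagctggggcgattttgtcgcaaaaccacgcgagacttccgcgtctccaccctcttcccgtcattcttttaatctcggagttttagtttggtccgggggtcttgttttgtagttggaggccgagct
Pabpn1, chr14:54893893-54894192, plus strand: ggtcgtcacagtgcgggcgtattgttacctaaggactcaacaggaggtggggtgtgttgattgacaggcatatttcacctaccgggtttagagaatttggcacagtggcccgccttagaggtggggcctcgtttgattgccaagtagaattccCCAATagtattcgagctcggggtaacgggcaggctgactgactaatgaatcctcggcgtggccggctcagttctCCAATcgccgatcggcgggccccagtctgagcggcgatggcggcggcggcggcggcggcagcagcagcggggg
Zc3h18, chr8:122376359-122376658, plus strand: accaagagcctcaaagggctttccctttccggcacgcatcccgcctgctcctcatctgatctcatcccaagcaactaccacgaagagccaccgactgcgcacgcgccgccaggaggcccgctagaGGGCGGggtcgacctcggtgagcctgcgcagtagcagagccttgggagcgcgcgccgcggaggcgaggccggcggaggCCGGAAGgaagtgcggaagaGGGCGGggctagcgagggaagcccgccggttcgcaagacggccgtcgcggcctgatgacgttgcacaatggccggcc
Zfc3h1, chr10:115384709-115385008, plus strand: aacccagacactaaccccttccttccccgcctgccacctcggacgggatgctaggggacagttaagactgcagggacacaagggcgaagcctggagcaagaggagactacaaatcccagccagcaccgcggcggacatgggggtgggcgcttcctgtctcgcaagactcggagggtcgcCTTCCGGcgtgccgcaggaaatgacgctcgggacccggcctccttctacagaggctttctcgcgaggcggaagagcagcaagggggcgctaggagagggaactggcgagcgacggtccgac
The Srrt window held none of the 6 motifs. The Pabpn1 window held 2 CCAAT boxes, the Zc3h18 window 1 ETS motif between 2 GC boxes, and the Zfc3h1 window 1 ETS motif. Promoters were available for 8 of the 10 genes, of which 3 held a GC box, 3 an ETS motif, 2 a CCAAT box, 2 a YY1 motif, 1 a TATA box and 0 an NRF1 motif. Over all 32851 promoters in the table the shares were 35.7% for the GC box, 8.86% for ETS, 37.4% for the CCAAT box, 2.75% for YY1, 13.6% for the TATA box and 1.75% for NRF1. Since the Srrt window held none, the genes lower in both dTAG comparisons of the ZCCHC8 line could share no motif of the 6. Rbm26, called lower there with Dox only, held 1 CCAAT box and 1 YY1 motif.

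On GRCm38 (mm10) the genes lie apart from one another. NEXT is encoded by Zcchc8 on chromosome 5 (123698302 to 123721044, minus strand) and Rbm7 on chromosome 9 (48488697 to 48495330, minus). The PAXT genes are Zfc3h1 on chromosome 10 (115384959 to 115432771, plus), Pabpn1 on chromosome 14 (54894143 to 54898927, plus), Zc3h3 on chromosome 15 (75754447 to 75841908, minus), Rbm26 on chromosome 14 (105114519 to 105177327, minus) and Rbm27 on chromosome 18 (42275353 to 42341540, plus). The cap-binding genes are Zc3h18 on chromosome 8 (122376616 to 122417360, plus), Srrt on chromosome 5 (137295704 to 137307674, minus) and Ncbp1 on chromosome 4 (46138511 to 46172402, plus). Reads were counted strand-specifically over the whole span, introns included. The only same-strand overlap of the 10 genes was that of Rbm26 with Gm17066, for which the sharing of reads is uncertain. Spans ran from 4.79 kb for Pabpn1 to 87.5 kb for Zc3h3.

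The genes differed widely in level. Over all 80 libraries the median level per kb of span was 11.1 CPM per kb for Srrt, 10.1 for Pabpn1 and 8.38 for Rbm26, followed by 5.73 for Zfc3h1 and 3.65 for Zc3h18. Medians of 3.26, 3.21 and 3.05 CPM per kb placed Zcchc8, Rbm7 and Rbm27 close together, Ncbp1 had 2.26, and Zc3h3, the gene with the longest span, had 0.772. In the untreated ZCCHC8 libraries (n = 2 clones) the order was Srrt (11.9 ± 1.74 CPM per kb, SD), Pabpn1 (9.83 ± 0.62), Rbm26 (9.62 ± 0.478), Zfc3h1 (5.47 ± 0.0859), Zc3h18 (3.78 ± 0.223), Rbm7 (3.04 ± 0.184), Rbm27 (2.90 ± 0.0873), Zcchc8 (2.45 ± 0.388), Ncbp1 (2.19 ± 0.0879) and Zc3h3 (0.711 ± 0.0926). In that order Pabpn1 and Rbm26 overlapped between clones, as did Rbm7 and Rbm27, and Zcchc8 and Ncbp1, and the other neighbours did not. In the untreated ZFC3H1 libraries (n = 2 clones) Pabpn1 (11.5 ± 3.58) and Srrt (11.5 ± 4.33) overlapped at the top. Further down, Rbm7 (3.65 ± 0.459), Zcchc8 (3.39 ± 1.43), Rbm27 (3.12 ± 0.199) and Zc3h18 (3.06 ± 1.18) each overlapped with the next gene, which for Zc3h18 was Ncbp1 (2.31 ± 0.281). Ncbp1 did not overlap with Zc3h3 (0.853 ± 0.134), which was again lowest. By the ratio of highest to lowest CPM over the 80 libraries, Ncbp1 varied least (1.49-fold, 63.0 to 94.1 CPM), and Zfc3h1 ran from 240 to 375 CPM. By the same ratio Srrt varied most (8.20-fold), with 47.2 CPM in METTL3 clone C3 with Dox and 387 CPM in clone H1 with Dox.

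**Figure D1:**
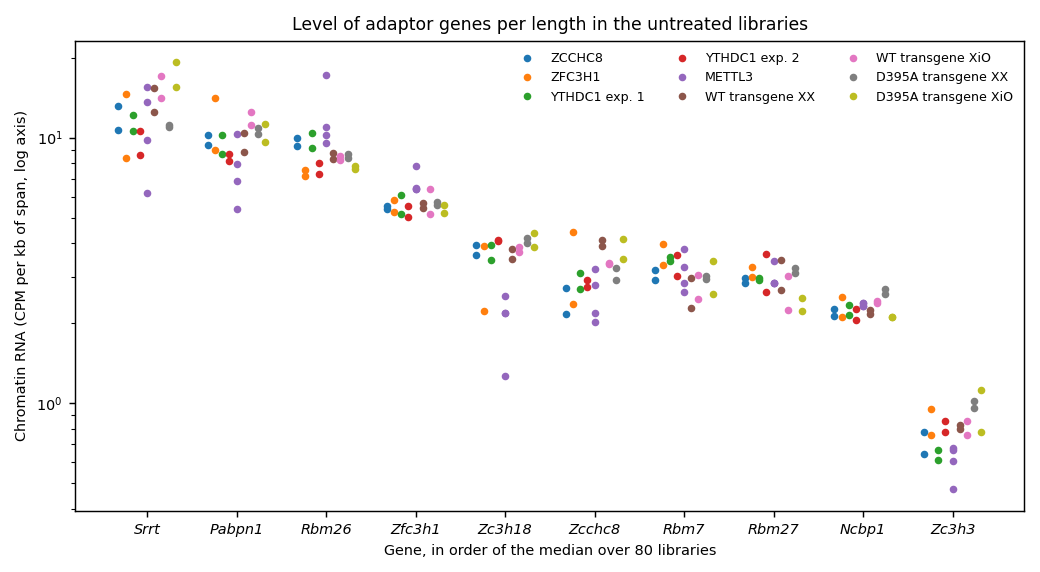
Level of the 10 genes in the untreated libraries of each line, in CPM per kb of span on a log axis, with 1 point per library and genes ordered by their median over all 80 libraries. Srrt, Pabpn1 and Rbm26 are at the top and Zc3h3 lies below the other 9 genes in every line.

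Depletion of ZCCHC8 was accompanied by lower RNA of the cap-binding link genes Srrt and Zc3h18 and of the PAXT gene Pabpn1, whereas Zcchc8 itself did not pass the test. With dTAG against untreated 3 of the 10 genes were called lower and 0 higher, and with dTAG + Dox against Dox 4 were called lower and 0 higher, the fourth being Rbm26. A call is an adjusted p under 0.05 in limma, adjusted by Benjamini-Hochberg over all 13857 genes tested. Among all genes tested 16.2% were called lower and 19.9% higher without Dox, and 15.2% lower and 25.2% higher with Dox. These shares are the background against which 3 or 4 of 10 is to be read. The median change of the 10 genes was -0.10 without Dox and -0.11 with Dox on the log2(CPM + 1) scale, beside -0.01 and 0.04 for all genes tested. Folds on this scale understate the change of low genes, and each group holds 2 clones. In bulk RNA, fewer cells with a transcript and less of it per cell cannot be told apart. Reads carried no molecular identifiers, so depth bears on counting error only.

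Srrt encodes the ARS2 protein that binds the cap-binding complex and passes capped transcripts on to NEXT, PAXT or other fates. Its level in clone Z4F went from 157 CPM untreated to 112.5 under dTAG, and from 171 under Dox to 111 with both agents. In clone Z12H the pairs were 128 and 92.9, and 127 and 97.1 CPM. All 4 dTAG libraries lay below all 4 libraries without dTAG. The log2 change was -0.47 without Dox (SE 0.0620, limma adjusted p = 2.33e-05) and -0.50 with Dox (SE 0.0620, adjusted p = 9.02e-06). Srrt remained called under every alternative that was fitted.

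Pabpn1 encodes the nuclear poly(A)-binding protein. In Z4F it went from 49.1 CPM untreated to 39.5 with dTAG and from 56.0 with Dox to 44.7 with dTAG + Dox. In Z12H the same pairs were 44.9 and 34.1, and 47.0 and 28.9 CPM. The lowest library without dTAG, at 44.9 CPM, was just above the highest with dTAG, at 44.7 CPM. The log2 change was -0.35 without Dox (SE 0.0912, limma adjusted p = 0.0072) and -0.50 with Dox (SE 0.0912, adjusted p = 0.000385). Without clone as a block the call without Dox was lost (adjusted p = 0.157). The next gene upstream on the same strand, Bcl2l2, ends 5.91 kb before Pabpn1 and had changes of 0.22 (adjusted p = 0.238) and 0.47 (adjusted p = 0.0134), the opposite sign.

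Zc3h18 encodes a zinc-finger protein that contacts both the cap-binding complex and NEXT. It measured 161, 142, 170 and 132.5 CPM in Z4F (untreated, dTAG, Dox and dTAG + Dox) and 148, 124, 149.5 and 146 CPM in Z12H. The 4 dTAG libraries again lay below the other 4, but in Z12H the pair with Dox was nearly level. The log2 change was -0.22 without Dox (SE 0.0728, limma adjusted p = 0.0288) and -0.20 with Dox (SE 0.0728, adjusted p = 0.0406). Leaving out Z4F moved the change with Dox to -0.04 (adjusted p = 0.773), and leaving out Z12H ended the call without Dox (adjusted p = 0.152). The call was also lost without the filter on low values and without the clone block, in both arms.

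Rbm26 and its paralogue Rbm27 encode RNA-binding proteins of PAXT. Rbm26 measured 583, 578, 612 and 548 CPM in Z4F and 626, 577, 599 and 485 CPM in Z12H, in the same order of treatments. The lowest library without dTAG was at 583 CPM and the highest with dTAG at 578 CPM, a narrow gap. The log2 change was -0.07 without Dox (SE 0.0598, limma adjusted p = 0.418) and -0.23 with Dox (SE 0.0598, adjusted p = 0.00547), and the latter was lost without clone Z12H (adjusted p = 0.142). Rbm27 ranged from 188 to 210 CPM without dTAG and from 171 to 206 with dTAG, with changes of -0.10 (adjusted p = 0.133) and -0.10 (adjusted p = 0.144).

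**Figure D2:**
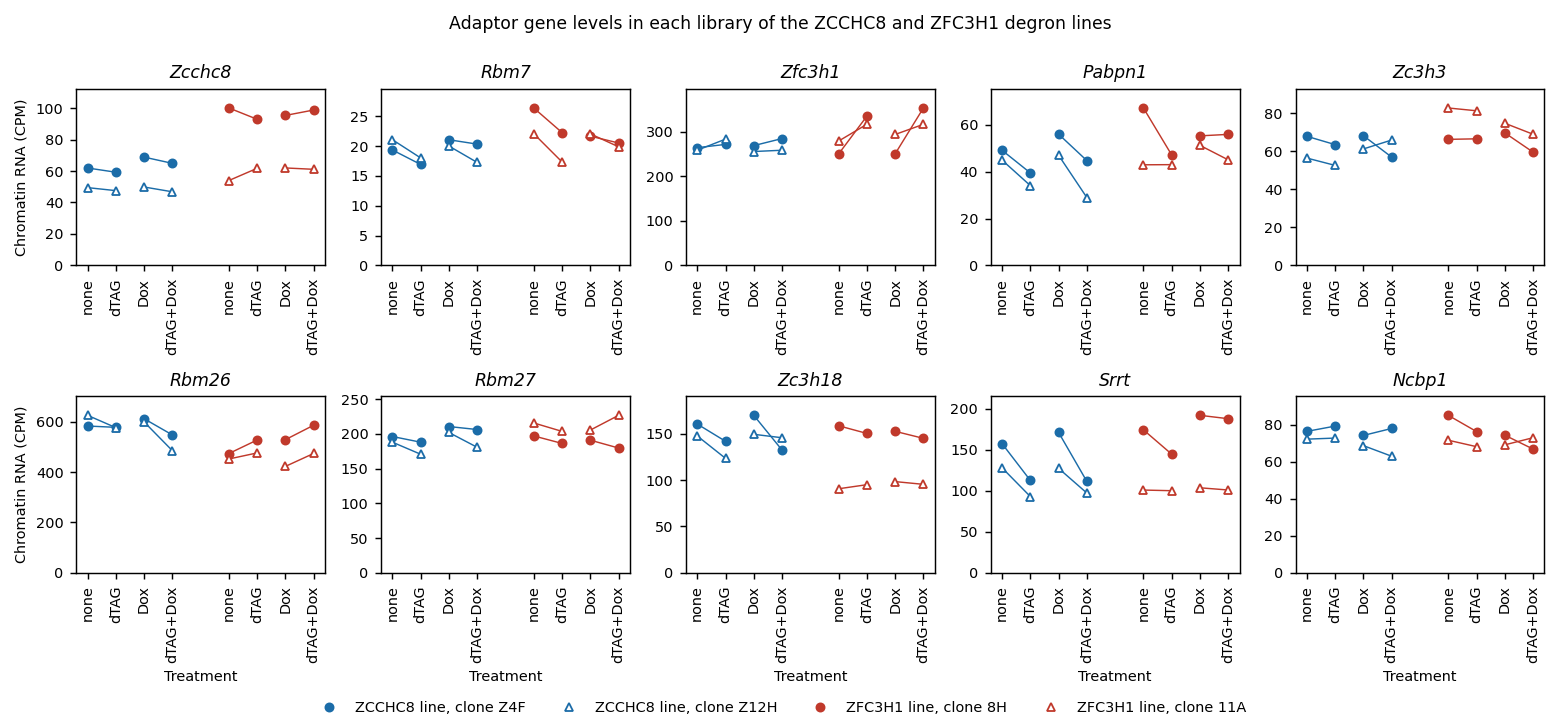
CPM of the 10 genes in each of the 16 libraries of the ZCCHC8 (blue) and ZFC3H1 (red) degron lines, with circles and triangles for the 2 clones of a line and lines joining libraries of a clone without and with dTAG. Srrt, Pabpn1, Zc3h18 and Rbm26 are lower in every dTAG library of the ZCCHC8 line than in any library without dTAG, and Zfc3h1 is higher in every dTAG library of the ZFC3H1 line.

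Zcchc8 itself, the gene whose protein was tagged, measured 61.9 CPM untreated and 59.3 with dTAG in Z4F, and 68.9 with Dox and 64.9 with dTAG + Dox. In Z12H the pairs were 49.5 and 47.5, and 49.8 and 46.8 CPM. The clones differed from each other by more than any clone differed with dTAG. The log2 change was -0.06 (SE 0.0658, 95% interval -0.20 to 0.08, limma adjusted p = 0.507) without Dox and -0.09 (SE 0.0658, -0.23 to 0.05, adjusted p = 0.312) with Dox. When each library was scaled by the median ratio over autosomal genes, the change with Dox was -0.20 (adjusted p = 0.0211), and that scaling lowered the median of all genes from 0.04 to -0.07 in the same comparison. It also turned the split of calls from 62.3% higher to 39.5% higher. Its NEXT partner Rbm7 measured 19.3 to 21.1 CPM without dTAG and 16.9 to 20.3 with dTAG. The Rbm7 change was -0.20 (95% interval -0.40 to 0.00032, adjusted p = 0.11) and -0.13 (-0.33 to 0.07, adjusted p = 0.307).

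The remaining genes did not pass the test in either arm of the ZCCHC8 line. Zfc3h1, the scaffold of the parallel PAXT pathway, measured 264, 272, 269 and 285 CPM in Z4F and 258.5, 283.5, 255.7 and 258.6 CPM in Z12H. Its change was 0.09 (95% interval -0.05 to 0.22, limma adjusted p = 0.306) without Dox and 0.05 (-0.08 to 0.18, adjusted p = 0.564) with Dox. Zc3h3 had changes of -0.10 and -0.08 and Ncbp1 of 0.03 and -0.03, with adjusted p from 0.509 to 0.768. Counted by libraries without any test, 4 of the 10 genes were lower in all 4 dTAG libraries than in the other 4, beside 8.99% of all genes tested, and 0 were higher, beside 16.6%. No difference of the dTAG effect between the arms with and without Dox passed the test in limma (0 of 10 called and 0 with an unadjusted p under 0.05, beside 0.238% of all genes called), and edgeR also called 0.

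Averaging the dTAG effect over both arms, a comparison added after the data were seen, put 6 of the 10 genes below the threshold of adjusted p in limma, all lower, beside 24.1% of all genes. The 6 were Srrt (-0.48, SE 0.0439, adjusted p = 1.28e-07), Pabpn1 (-0.42, SE 0.0645, adjusted p = 4.04e-05), Zc3h18 (-0.21, SE 0.0515), Rbm7 (-0.16, SE 0.0667, adjusted p = 0.0499), Rbm26 (-0.15, SE 0.0423) and Rbm27 (-0.10, SE 0.0357). Zfc3h1 at 0.07 and Zcchc8 at -0.07 were not called. With median-ratio scaling Zcchc8 was at -0.15 (limma adjusted p = 0.0117), and the median of all genes went from 0.01 to -0.06. The mean of both arms treated the pairs of a clone in the arms without and with Dox as independent. A dTAG effect that differs by clone had no term and entered the SE of that mean only as residual spread. That SE may therefore be too small. The calls of Rbm7 and Rbm27 were lost without the clone block (adjusted p = 0.144 and 0.150) and with the line's libraries alone (0.0864 and 0.0643), and that of Rbm7 also with no filter on low values (0.0607). Without clone Z12H the calls of Rbm26 (0.217), Rbm27 (0.485) and Rbm7 (0.299) were lost, and without Z4F those of Zc3h18 (0.0633) and Rbm7 (0.0629).

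**Figure D3:**
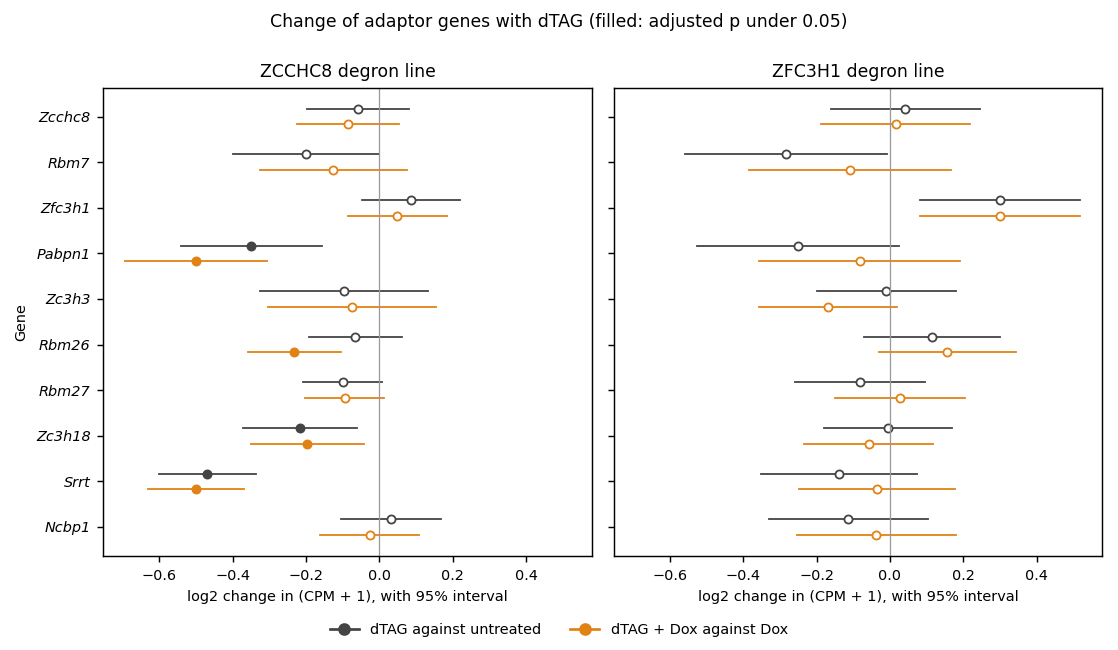
log2 change in CPM + 1 of each gene with dTAG (points) and its 95% interval (bars) in the ZCCHC8 and ZFC3H1 lines, without Dox (grey) and with Dox (orange), with filled points for an adjusted p under 0.05. In the ZCCHC8 panel Srrt and Pabpn1 lie farthest to the left, at -0.35 to -0.50, and in the ZFC3H1 panel no point is filled and Zfc3h1 lies farthest to the right, at 0.30.

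In the ZFC3H1 line no gene of the group passed the test in either arm, and the gene with the largest change was Zfc3h1 itself, which was higher with dTAG in both clones. limma called 0 of the 10 genes without Dox (2 at an unadjusted p under 0.05) and 0 with Dox (1 at an unadjusted p under 0.05), and edgeR called 0 in both. The share called among all 13544 genes tested was 2.15% without Dox and 3.15% with Dox. With so few calls over all genes, 0 of 10 is near the background. The median change of the 10 genes was -0.05 and -0.04, beside -0.01 and -0.0019 for all genes.

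Zfc3h1 measured 250 CPM untreated and 335 with dTAG in clone 8H, and 250.5 with Dox and 353 with dTAG + Dox. In clone 11A the pairs were 279 and 317, and 294 and 317 CPM. The dTAG libraries lay between 316.7 and 353.4 CPM and the others between 250.1 and 294.0 CPM, a relation in which 3.83% of all genes tested were higher and 1.87% lower. The log2 change was 0.30 without Dox (SE 0.0982, 95% interval 0.08 to 0.52, limma adjusted p = 0.157) and 0.30 with Dox (SE 0.0982, 0.08 to 0.52, adjusted p = 0.136). By clone the change was 0.42 and 0.49 in 8H and 0.18 and 0.11 in 11A. Averaged over both arms, added after the data were seen, it was 0.30 (SE 0.0694, 0.15 to 0.46) with an adjusted p of 0.0223, and 6.45% of all genes were called higher. That call was lost without the filter on low values (adjusted p = 0.0671) and without the clone block (adjusted p = 0.688). The mean of arms treated the pairs of a clone as independent. The difference between 8H and 11A that recurred in both arms entered the SE of that mean only as residual spread. That SE may therefore be too small. The degron sits in the Zfc3h1 gene itself, so in this line the measured RNA is that of the tagged gene.

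Neither NEXT gene passed the test in the ZFC3H1 line, and for Zcchc8 the clones lay farther apart than any pair without and with dTAG. Zcchc8 measured 100.1, 92.9, 95.4 and 98.8 CPM in 8H and 54.0, 61.8, 62.0 and 61.1 CPM in 11A, again in the order untreated, dTAG, Dox and dTAG + Dox. Its change was 0.04 (95% interval -0.16 to 0.24) and 0.02 (-0.19 to 0.22), with limma adjusted p of 0.863 and 0.959. Rbm7 measured 26.4, 22.3, 21.7 and 20.5 CPM in 8H and 22.1, 17.3, 22.0 and 19.9 CPM in 11A, with changes of -0.28 (adjusted p = 0.292) and -0.11 (adjusted p = 0.718). Lower values with dTAG were thus found in all 4 pairs for Rbm7, but the groups overlapped.

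Of the PAXT partners in the ZFC3H1 line, Pabpn1 measured 67.2, 47.1, 55.3 and 55.9 CPM in 8H and 42.9, 43.0, 51.2 and 45.0 CPM in 11A. Its change of -0.25 without Dox (limma adjusted p = 0.359) was -0.50 in clone 8H and 0.0021 in 11A. Rbm26 measured 474, 528, 529 and 586 CPM in 8H and 452, 476, 423 and 474 CPM in 11A. It was higher with dTAG in all 4 pairs, by 0.11 (adjusted p = 0.553) and 0.16 (adjusted p = 0.368), with overlapping groups. Rbm27 had changes of -0.08 and 0.03 and Zc3h3 of -0.01 and -0.17, with adjusted p from 0.337 to 0.97.

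Of the cap-binding genes, Srrt and Zc3h18 separated the ZFC3H1 clones as well, and Ncbp1 did not. Srrt was at 174, 144.5, 192 and 188 CPM in 8H and at 101, 99.99, 103.5 and 101 CPM in 11A. Zc3h18 was at 159, 150.5, 153 and 145 CPM in 8H and at 90.7, 95.1, 98.4 and 95.5 CPM in 11A. Every 8H library was above every 11A library for both genes, whatever the treatment. The share of all genes that separated the clones in this way is not given here. With dTAG, Srrt had changes of -0.14 and -0.03, Zc3h18 of -0.0045 and -0.06 and Ncbp1 of -0.11 and -0.04 (limma adjusted p from 0.526 to 0.985). The summed feeder markers, at 22.8 to 33.3 CPM in 8H and 48.6 to 59.3 CPM in 11A, separated the same clones. That sum was mostly Fbn1, at 19.2 to 57.2 CPM in this line, while none of the other feeder markers exceeded 2.86 CPM. Col1a1 did not separate the clones (0.101 to 0.893 CPM in 8H and 0.210 to 0.876 CPM in 11A). The part of feeder cells in these levels was not tested. As in the ZCCHC8 line, no difference of the dTAG effect between the arms passed the test (limma and edgeR called 0 of the 10 genes, 0 had an unadjusted p under 0.05, and 0% of all genes were called).

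The ZCCHC8 and ZFC3H1 lines are in separate tables that were scaled separately, and the difference between them was not tested. Srrt was at -0.47 and -0.50 in the former and at -0.14 and -0.03 in the latter, with 95% intervals of -0.60 to -0.34 and -0.63 to -0.37 against -0.35 to 0.07 and -0.25 to 0.18. The Srrt intervals overlapped narrowly without Dox and did not overlap with Dox. Intervals for Pabpn1 (-0.54 to -0.16 and -0.69 to -0.31 against -0.53 to 0.02 and -0.36 to 0.19) overlapped in both arms.

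Genes that act beside the adaptors were followed as a list of 23: the exosome subunits with their cofactors, MTR4 (Mtrex), the polyadenylating TRAMP parts Zcchc7 and Tent4b, further cap-binding and export factors, and the restrictor proteins Zc3h4 and Wdr82. All but Rbm11 passed the filter. In the ZCCHC8 line 3 were called higher and 5 lower without Dox, and 3 higher and 4 lower with Dox, of 22 tested. Over all genes 19.9% were called higher and 16.2% lower without Dox, and 25.2% and 15.2% with Dox. The median change of the list was -0.05 and 0.00, beside -0.01 and 0.04 for all genes. In the ZFC3H1 line limma and edgeR called 0 of 22 in both arms (1 and 5 at an unadjusted p under 0.05), beside 2.15% and 3.15% of all genes called, with medians of -0.06 and 0.04.

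Exosc6, a subunit of the exosome core, rose most. It measured 4.82, 11.5, 5.49 and 10.6 CPM in Z4F and 7.17, 12.6, 5.20 and 13.5 CPM in Z12H, and its log2 change was 0.91 (SE 0.126, limma adjusted p = 3.42e-05) and 1.03 (SE 0.126, adjusted p = 7.72e-06). Its span is 1.33 kb, and Aars ends 0.769 kb upstream on the same strand with a change of -0.48 (limma adjusted p = 7.11e-05) and -0.41 (adjusted p = 0.000231). Among all genes of the ZCCHC8 line, those under 3 kb of span had a median change of 0.17 and 0.31, beside which the Exosc6 value is to be read. They held 1.16% to 1.39% of reads without dTAG and 1.30% to 1.69% with dTAG.

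Zc3h4, whose protein restricts extragenic transcription, rose by 0.41 (SE 0.0868, limma adjusted p = 0.0016) and 0.45 (SE 0.0868, adjusted p = 0.000585). Its levels were 117, 158, 130.5 and 161 CPM in Z4F and 108, 142, 115 and 176 CPM in Z12H. In the ZFC3H1 line the same gene had -0.32 (adjusted p = 0.0702) and -0.14 (adjusted p = 0.401), and -0.23 with an adjusted p of 0.0288 when the arms were averaged. Zcchc7 rose by 0.24 and 0.17 in the ZCCHC8 line, Exosc7 fell by 0.24 and 0.21, and Ncbp3, an alternative cap-binding subunit, fell by 0.22 and 0.19. Of these 5 genes only Exosc6 and Zc3h4 remained called without the clone block in both arms, while Zcchc7 did so without Dox. Over 8 alternatives the Zcchc7 change with Dox ran from 0.06 to 0.21 and was called in 3. With Dox, Exosc7 was called in 6 of the 8 and Ncbp3 in 4. Without clone Z12H, Zc3h4 with Dox was at 0.30 (limma adjusted p = 0.0843), Ncbp3 without Dox at -0.09 (adjusted p = 0.457) and Exosc7 with Dox at -0.14 (adjusted p = 0.322).

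**Figure D4:**
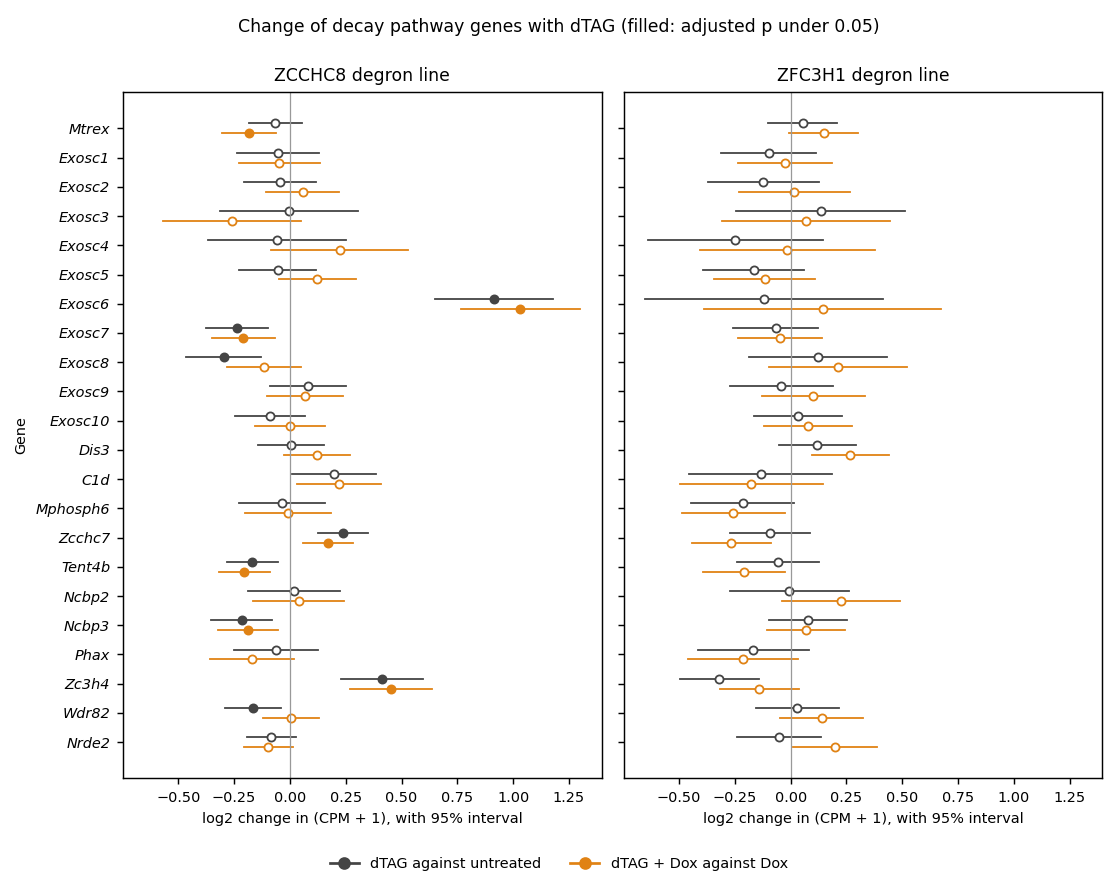
log2 change in CPM + 1 with its 95% interval for the 22 tested genes of the decay pathway list, drawn as in the plot of the adaptor genes (filled points for an adjusted p under 0.05). Exosc6 at 0.91 and 1.03 and Zc3h4 at 0.41 and 0.45 lie to the right in the ZCCHC8 panel, and no point is filled in the ZFC3H1 panel.

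The YTHDC1 libraries of the first experiment share a table with the ZCCHC8 line, so the dTAG effects of the 2 targets (each averaged over its arms) were compared in the same fit. In limma 2 of the 10 effects differed, both lower with ZCCHC8 loss, beside 20.5% of all genes. The difference was -0.34 for Pabpn1 (SE 0.0912, 95% interval -0.53 to -0.15, adjusted p = 0.00671) and -0.13 for Rbm27 (SE 0.0505, -0.24 to -0.03, adjusted p = 0.0398). Both calls were lost without the clone block (adjusted p = 0.142 and 0.186) and without YTHDC1 clone Y12H (0.0825 and 0.182), and that of Rbm27 also without Y9F (0.17) and without ZCCHC8 clone Z12H (0.305). edgeR called Pabpn1 only, with Rbm27 at an adjusted p of 0.0518. For Srrt the difference was -0.12 (95% interval -0.25 to 0.01, adjusted p = 0.126).

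Srrt was called lower in the YTHDC1 line as well as in the ZCCHC8 line. In the first YTHDC1 experiment it went from 146 to 109.5 CPM and from 138 to 109.8 CPM in Y9F, and from 127 to 103 CPM and from 136 to 102 CPM in Y12H, without and with Dox. The mean of the arms was -0.36 (SE 0.0439, limma adjusted p = 1.19e-05). In the second experiment with the same clones the pairs were 127 and 101, and 119 and 96.8 CPM in Y9F, and 103 and 95.1, and 106 and 78.5 CPM in Y12H, with a mean of -0.29 (SE 0.0489, adjusted p = 0.000134). In each experiment it was the only gene of the 10 that was called, except that in the first Zc3h18 was called as well with median-ratio scaling, with edgeR and when the line was fitted alone, beside 14.3% and 15.8% of all genes called lower. In the second experiment the call was lost without the clone block (adjusted p = 0.185).

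In METTL3 clones Srrt gave no stable direction. It went from 117 to 302 CPM in H1 without Dox and from 387 to 321 CPM with Dox, while C3 went from 73.9 to 65.2 and from 47.2 to 128 CPM. The mean of the arms was 0.24 (SE 0.241, limma adjusted p = 0.432). In the D395A transgene lines the mean was -0.34 in XX cells (SE 0.14, adjusted p = 0.118) and -0.33 in XiO cells (SE 0.15, adjusted p = 0.245). All 8 pairs of D395A libraries were lower with dTAG, and the share of all genes lower in every pair is not given here. By adjusted p in limma, a stricter measure, 4.27% (XX) and 1.17% (XiO) of all genes were called lower. With the experiment as a block the XX change was called in limma (adjusted p = 0.000336) and so was the XiO change (adjusted p = 8.91e-05). In those fits 49.2% (XX) and 50.1% (XiO) of all genes were called, 14.9% and 12.4% lower. In the WT transgene lines Srrt was at -0.11 (XX) and -0.08 (XiO), where limma and edgeR called 0 of all genes tested (44 and 18 at an unadjusted p under 0.05). By experiment, WT XX was at -0.30 and -0.25 without Dox, and at -0.10 and 0.21 with Dox. WT XiO was at 0.0062 and -0.21 without Dox, and at 0.00019 and -0.13 with Dox.

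METTL3 depletion was the condition in which Zcchc8 and Rbm7 were called higher, at 0.32 (SE 0.101, limma adjusted p = 0.0224) and 0.54 (SE 0.115, adjusted p = 0.00332), beside 35.1% of all genes called higher. These values depended on the scaling. The median of all genes was 0.22 in this comparison and -0.01 after median-ratio scaling, which left Zcchc8 at 0.06 (limma adjusted p = 0.57) and Rbm7 at 0.28 (adjusted p = 0.0823). It moved the share of calls that were higher from 80.1% to 40.4%. Without clone C3 or without H5 Zcchc8 lost its call (adjusted p = 0.0558 and 0.108). Genes under 3 kb held from 0.497% to 4.57% of reads in these 16 libraries, and their part in the values was not tested. Rbm7 was higher with dTAG in all 8 pairs, most clearly in C3 (18.9 to 40.2 CPM without Dox) and H5 (17.3 to 39.7 CPM), and least in H1 (25.3 to 26.3 CPM). Among the other 8 genes none was called, and Pabpn1 had 0.44 (adjusted p = 0.0514).

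**Figure D5:**
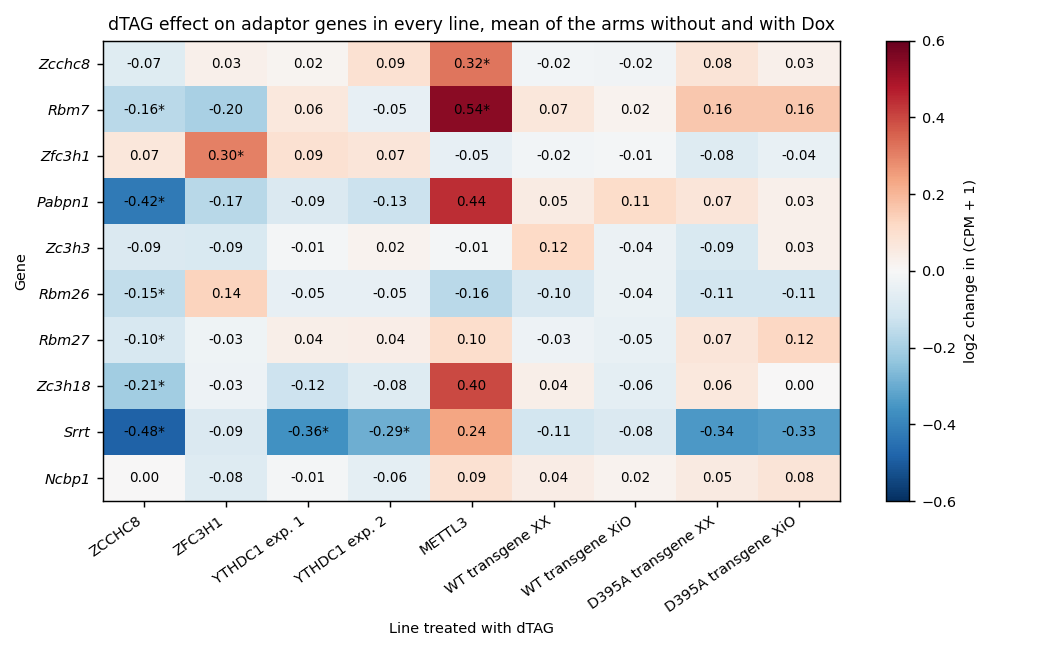
log2 change with dTAG of the 10 genes (rows) in each line (columns), as the mean of the arms without and with Dox, with asterisks for an adjusted p under 0.05 in limma. The ZCCHC8 column has 6 asterisks, all lower, the ZFC3H1 column has 1 at Zfc3h1 (0.30), and Srrt is called lower in the ZCCHC8 column and both YTHDC1 columns.

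As a description over 18 dTAG contrasts (9 line-experiments, without and with Dox, some sharing clones), the genes whose changes ran most closely with Zcchc8 among 12671 genes were Mllt1 (Pearson r = 0.924) and Pkmyt1 (0.896). Of the other adaptor genes Zc3h18 (0.835), Pabpn1 (0.730) and Rbm7 (0.713) came closest to Zcchc8, and Zfc3h1 was at -0.209. The genes closest to Zfc3h1 were Rnpc3 (0.940), Parp11 (0.915) and Ccl25 (0.911), and Rbm26 (0.766) was the nearest of the adaptor genes. The points share libraries and depth, and the METTL3 contrasts have the widest changes, so these values only rank genes.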

How the data were processed

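Chromatin-associated RNA-seq of 80 mouse ES cell libraries in 36 groups was used, grouped by the sample labels. The deposited tables hold CPM per gene, which the authors computed with edgeR from strand-specific featureCounts counts over whole transcript spans. Reads had been cleared of rRNA with bowtie2 and aligned with STAR to mm10 masked at Cast and 129S variants, keeping unique alignments. A further 12 columns matched no sample and stayed out.

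Members and lists were chosen with earlier results of these data known. Reads were recovered from the CPM steps (100% of values whole within 0.02 of a read, 8.58 to 34.4 megareads per library). limma 3.58.1 (R 4.3.3; lmFit, eBayes with trend) was fitted to log2(CPM + 1) over genes whose mean over the table reached 1 CPM, two-sided, with Benjamini-Hochberg adjustment over all genes tested. In the degron lines the fit had clone as a block, since same-numbered libraries come from the same clone. No term let the dTAG effect differ by clone, so means of both arms count the pairs of a clone as independent. Across genes, the deviations of a clone's libraries from the group means correlated between treatments at 0.33 to 0.61 in the ZCCHC8 line and 0.81 to 0.90 in the ZFC3H1 line. These values describe differences between clones and not whether the dTAG effects of the arms depend on each other. All 10 members were named. Of the 23 pathway genes, at most 5 per line were named, those called the same way in both dTAG comparisons with the largest mean change. Genes like Zcchc8 and Zfc3h1 were the 3 with the highest correlation of changes. Alternatives were a pseudocount of 0.5, no filter, median-ratio scaling over autosomal genes, edgeR 4.0.16 on the recovered reads, fits with or without the block, only the line's libraries, each replicate left out, and the mean of both arms, the last chosen after seeing the data. The fits were also run on simulated data that held no differences between clones, and the outcome is not given here. Of the genes whose changes ran most closely with Zcchc8, 1 is not reported here.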

Additional observations from a re-analysis of the deposited data

Results flagged for a closer look

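Over 40 groups of 4 METTL3 libraries (10 genes in 4 treatments), 3 held a library far from the others by Dixon's test, which chance gives in about 1 in 20 groups. Zfc3h1 in untreated clone H1 was at 375.1 CPM, with the other clones at 305.1 to 308.5. Rbm27 in untreated clone C3 was at 227.7 CPM, with the others at 187.1 to 187.9. Ncbp1 with Dox in clone G4 was at 80.03 CPM, with the others at 76.7 to 77.0.

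The effect of dTAG differed between the ZCCHC8 and YTHDC1 lines for Pabpn1 (-0.34, limma adjusted p = 0.00671) and Rbm27 (-0.13, limma adjusted p = 0.0398), beside 20.5% of all genes called lower. Both calls were lost without the clone block (adjusted p = 0.142 and 0.186) and without YTHDC1 clone Y12H (0.0825 and 0.182), and edgeR did not call Rbm27 (0.0518).

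Among the adaptor genes and the pathway genes described one by one, 3 had all 4 pairs one way in the ZCCHC8 line and the other way in the ZFC3H1 line. The share of all genes with this pattern is not given here, and the difference was not tested. The mean log2 change was -0.15 and 0.14 for Rbm26, 0.43 and -0.23 for Zc3h4, and -0.20 and 0.07 for Ncbp3, in that order of lines.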

How the results depend on the processing

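Srrt in the ZCCHC8 line was called in both arms under all alternatives fitted. Over the alternatives, 416 of 481 single-gene values kept their direction and their side of the threshold, and 107 of 136 counts stayed within 1.5 times. Without clone as a replicate block, calls in the ZCCHC8 line went from 3 to 1 adaptor genes without Dox, and pathway calls to 4 without and 2 with Dox. Over all 13857 genes, calls went from 4996 to 2498 without Dox and from 5598 to 3285 with Dox. Calls also went to 0 for ZCCHC8 minus YTHDC1, 0 in YTHDC1 experiment 2 and 1 in METTL3. In those fits 3746 of 13857, 374 of 13722 and 3364 of 13367 genes were called, in that order. With the experiment as a replicate block, 1 gene was called in D395A XX and 3 in D395A XiO, beside 49.2% and 50.1% of all genes. The mean of both arms called 6 adaptor genes in the ZCCHC8 line, and 1 adaptor and 1 pathway gene in the ZFC3H1 line. Beside these, 7420 of 13857 and 1341 of 13544 genes were called. Median-ratio scaling called 4 for ZCCHC8 minus YTHDC1, 2 in YTHDC1 experiment 1 and 1 in D395A XX, beside 6505 of 13857, 4637 of 13857 and 2373 of 13364 genes. edgeR called 1, 2 and 1 there, beside 6076, 4782 and 2328 of all genes. Only the line's libraries gave 2 in YTHDC1 experiment 1 and 1 in D395A XX, beside 4815 of 13586 and 4038 of 13310 genes. Leaving out a replicate gave 3 to 5 pathway calls without Dox and 1 to 5 with Dox in the ZCCHC8 line. It gave 0 to 2 adaptor calls for ZCCHC8 minus YTHDC1 and 1 to 2 in METTL3. Calls over all genes in those fits were 2765 to 2921, 3136 to 4162, 4103 to 5271 and 2901 to 4890, in that order. Directions reversed only in values that were not called. Under median-ratio scaling these were Ncbp1 without Dox (-0.0099) and Zfc3h1 with Dox (-0.0666) in the ZCCHC8 line, and Zcchc8 with Dox (-0.0039) in the ZFC3H1 line. With Dox in the ZCCHC8 line, Zc3h3 ranged from -0.256 to 0.105 and Ncbp1 from -0.124 to 0.0705 when 1 clone was left out, and Ncbp1 was at 0.0026 in the mean of arms. Rbm27 in the ZFC3H1 line was at -0.0275 in the mean of arms. The cause was not tested. Leaving out a clone in the ZFC3H1 line or in YTHDC1 experiment 2 left no residual degrees of freedom, so those are values with no test. Each line had 2 clones, and Rbm7 had as few as 149 reads in a library, which limits the precision of its changes.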

Other observations

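The nearest same-strand genes upstream of the adaptor genes were read in the ZCCHC8 line, where 9 were tested. Of these, 4 were called higher in both arms, beside 16.7% of all genes, 1 was called higher in 1 arm (Bcl2l2, before Pabpn1) and 4 were called in neither (Rsrc2, Spry2, Zfpm1 and Trip6). Tmod1, which ends 22.5 kb before Ncbp1 and encodes an actin-capping tropomodulin, had log2 changes of 1.42 without and 1.23 with Dox (limma adjusted p = 2.83e-06 and 9.07e-06), beside 0.03 and -0.03 for Ncbp1. Nnmt, 96.6 kb before Rbm7, had 1.18 and 1.14 (adjusted p = 2.51e-05 and 2.82e-05). Mroh6, 41.0 kb before Zc3h3, had 0.53 and 1.06, and Sh3rf2, 117 kb before Rbm27, had 0.41 and 0.51. Trip6, 2.22 kb before Srrt, had -0.19 (adjusted p = 0.326) and 0.21 (adjusted p = 0.273). These genes were chosen by position.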
